A study of Mus musculus with 36 samples.

Results

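The change between day 3 and day 7 in the response of the right lung to left pneumonectomy (PNX) was measured in 3 month mice across all genes of a microarray. The unit was the biorep, a pool of equal amounts of RNA from 2 female C57BL6 mice, hybridised once for the left lung, which was removed at surgery, and once for the right lung, which remained in the chest until day 3 or day 7. The members were the 3 bioreps of day 3 (7, 8 and 9) and the 3 of day 7 (13, 14 and 15), which gave 12 of the 36 arrays of the series. The remaining arrays held 9 month mice and day 1. All mice had the same operation. The study's methods describe anaesthesia with ketamine and xylazine, ampicillin and saline before surgery, and buprenorphine against pain in the days after it. No further treatment is described for these mice, and the labels name no mutant allele. For each biorep the response was the log2 ratio of the right over the left lung, and the change was the mean of the 3 day 7 ratios minus the mean of the 3 day 3 ratios. A positive change was thus a higher ratio on day 7, and 1 unit was a factor of 2. The question was which genes responded late, on day 7 but not on day 3, and which responded early and had returned by day 7.

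Removal of 1 lung in rodents is followed by growth of the lobes that remain. Inflammatory cells enter early, epithelial, endothelial and mesenchymal cells then divide, and fibroblasts and myofibroblasts lay down collagen and elastin as new alveolar walls form. Secreted regulators of the TGF-beta, BMP and hedgehog families, and retinoic acid, are known to take part when alveoli are built.

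The design limited what a change could be attributed to. The day 3 and the day 7 mice were different animals, and the mice of a day are called a cohort here. Whether the cohorts were operated in separate sessions is not stated in the sources used here. Each chip carried the left or the right lungs of 1 day only. Day, cohort of mice and chip therefore cannot be told apart. None of the arrays held a sham-operated lung, and the left and right lungs of a day lay on different chips. PNX, surgery as such, the difference between right and left lung and chip therefore cannot be told apart within a day either. The RNA was from whole lung, in which fewer cells of a type and less RNA per cell cannot be told apart.

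A transcript here is a probe with a detection p-value under 0.05 on all 36 arrays, which 15795 of 45281 probes met. A probe silent in either lung on either day was therefore not tested. The 75th percentile of raw intensity ranged from 170 to 392 over the 12 arrays, and between 44.9% and 48.9% of probes were detected on each. Lung identity was plain on all 12 arrays: the log2 level of Sftpc, the surfactant protein of alveolar type 2 cells, lay between 15.21 and 15.57, and that of Scgb1a1, the secretory protein of club cells, between 14.90 and 15.54. The right lung array of biorep 7 stood apart from its group. It correlated at 0.974 and 0.979 with the other day 3 right lungs, which correlated at 0.989 with each other, and at 0.978 to 0.981 with the day 7 right lungs. The left lung array of biorep 13 correlated at 0.982 with the other day 7 left lungs, which correlated at 0.991 with each other. Results are given with and without biorep 7, and the number of calls also without each other biorep.

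With all 6 bioreps, 3 of 15795 transcripts (0.019%) were called in the change, 1 higher and 2 lower on day 7. A call required a limma p-value under 0.05 after Benjamini-Hochberg adjustment and a response of at least 1.5-fold on at least 1 of the 2 days. Before adjustment 2253 transcripts (14.3%) had a p-value under 0.05. Most changes were small, with a median of 0.00 and most of them between -0.57 and 0.55, and the median standard error of a change was 0.21. The 3 calls rested on the full set of ratios: without biorep 8, 9, 13 or 14, with the replicate block or with the 6 ratios alone, 0 transcripts were called, and without biorep 15, 5.

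The transcript named Nudel-pending on the array, a name that RefSeq does not list and to which no role is given here, was the late-starting fall with the larger change. Its log2 ratios were -0.25, 0.22 and 0.41 on day 3 and -1.46, -1.14 and -1.73 on day 7. The days did not overlap, and the right lung was 1.09-fold higher on day 3 and 2.72-fold lower on day 7. The change was -1.57 ± 0.25 (SE, adjusted p = 0.0426), of which the right lungs gave -0.85 and a higher level in the day 7 left lungs the rest, since those left lungs exceeded the day 3 left lungs by 0.72.

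Tor1aip1, which encodes the lamina-associated protein of the inner nuclear membrane that activates torsin ATPases, was the other late-starting fall. Its ratios were 0.04, 0.10 and 0.35 on day 3 and -0.92, -0.53 and -0.67 on day 7. All 3 ratios of day 7 were below all 3 of day 3, by a change of -0.87 ± 0.13 (SE, adjusted p = 0.0426). Here the left lungs of the 2 cohorts differed by 0.13 and the right lungs by -0.74, so the right lungs carried most of the change. Tor1b, a torsin of the nuclear envelope, was not called with all bioreps, with ratios of -0.448, 0.311 and -0.194 against -1.226, -1.004 and -0.573 (adjusted p = 0.11).

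Cand1, the exchange factor of cullin ubiquitin ligases, was the transcript called higher. Its ratios were -0.23, -0.49 and -0.72 on day 3 and 0.81, 0.50 and 0.58 on day 7, a change of 1.11 ± 0.17 (SE, adjusted p = 0.0426). The probe lay below its left lung on every day 3 biorep and above it on every day 7 biorep. The other 2 Cand1 probes, both brighter, gave changes of 0.10 and -0.07, so the gene as a whole cannot be said to have risen.

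**Figure D1:**
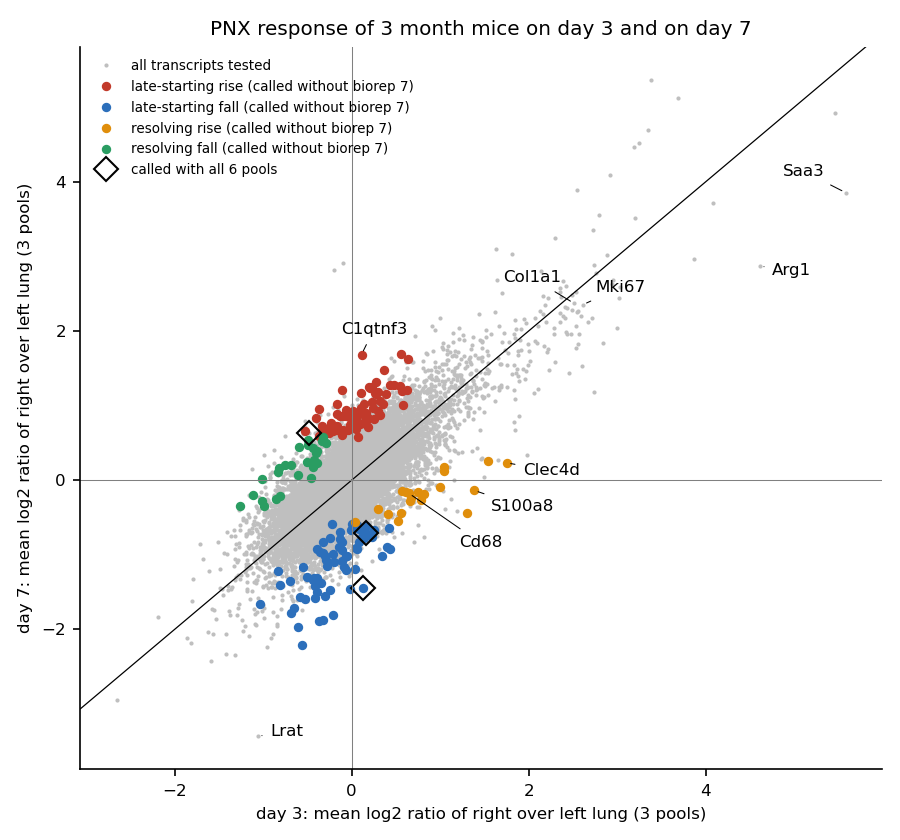
Mean log2 ratio of right over left lung on day 3 (x axis) against day 7 (y axis) for all 15795 transcripts of 3 month mice, 3 bioreps a day; the diagonal marks equal responses. Diamonds mark the 3 transcripts called with all 6 bioreps and coloured points the late-starting and resolving ones called without biorep 7; Saa3 and Arg1 lie below the diagonal at high ratios, Lrat at the lowest day 7 ratio.

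Leaving out biorep 7, chosen after its array was seen to stand apart, raised the calls to 203 (1.29%), 103 higher and 100 lower on day 7. Of these, 72 were late-starting rises and 65 late-starting falls, that is, called on day 7 and under 1.5-fold on day 3. Resolving transcripts, called on day 3 and under 1.5-fold on day 7, were 20 rises and 26 falls. Of the rest, 5 falls and 1 rise were called on both days and larger on day 7, and 2 rises were called on both days and smaller on day 7. Another 9 were called on both days in opposite directions, and 3 had another pattern. In the omitted biorep the ratio was nearer to the day 7 than to the day 3 mean for 120 of the 203 transcripts. Those transcripts were selected by leaving biorep 7 out, and no such count is given for all transcripts. The 120 therefore cannot be read as a trait of biorep 7. The 203 transcripts are described by their ratios in all 6 bioreps, biorep 7 included.

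Many of the 203 rested on 1 probe of several. For 53 a brighter probe of the same gene was measured, and it was called too for 1 and had an unadjusted p-value under 0.05 in the same direction for 14. The median change toward the called direction was 1.17 for the called probe and 0.23 for the brighter one. For 123 transcripts no other probe of the gene was kept.

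Among late-starting rises, C1qtnf3, a secreted protein of the C1q and TNF family that is made by mesenchymal cells, had the largest change without biorep 7. Its ratios were 0.71, -0.43 and 0.05 on day 3 and 1.62, 1.97 and 1.46 on day 7, a 3.21-fold higher level in the right than in the left lungs on day 7. Biorep 7 was the highest of day 3, still below every day 7 biorep. The probe was dim, with a mean log2 level of 6.43 against a median of 9.29 for all tested. It was not called when detection at 0.01 was required on all 36 arrays. The change was 1.57 ± 0.28 (SE) with an adjusted p of 0.054 with all bioreps and 0.016 without biorep 7, and it lay in the right lungs, which differed by 1.58 while the left lungs differed by 0.01.

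Col12a1, Plod2 and B4galt7, genes of the extracellular matrix, were among the late-starting rises without biorep 7. Col12a1, the collagen that decorates type I fibrils, had ratios of 0.44, 0.26 and -0.06 on day 3 and 0.94, 1.43 and 1.36 on day 7. Plod2, the lysyl hydroxylase that prepares collagen telopeptides for stable crosslinks, had -0.06, -0.56 and -0.48 against 0.50, 0.34 and 0.94. B4galt7, which builds the linker that joins glycosaminoglycans to proteoglycans, had 0.22, -0.46 and -0.47 against 1.34, 0.17 and 0.79. Col12a1 and Plod2 did not overlap between days, with changes of 1.03 ± 0.21 and 0.96 ± 0.20 (SE) and adjusted p of 0.058 and 0.063 with all bioreps. In B4galt7 biorep 7 overlapped day 7. The right lungs differed between days by 0.15 for Col12a1 and by 0.72 for Plod2, and the left lungs by -0.88 and -0.23.

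Id3, an inhibitor of helix-loop-helix transcription factors and a direct target of BMP signals, had ratios of 0.37, 0.24 and 0.50 on day 3 and 0.98, 1.63 and 1.82 on day 7. It was 2.78-fold higher in the right lungs on day 7, with a change of 1.10 ± 0.22 (SE, adjusted p = 0.058 with all bioreps, 0.045 without biorep 7). Its relative Id1 had a change of 0.65 (adjusted p = 0.16) from a different start: it was called lower on day 3, at -0.84, -0.43 and -0.60, and was back near 0 on day 7, at 0.24, -0.07 and -0.10.

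Pgc, the pepsinogen that takes part in surfactant protein B processing in type 2 cells, had ratios of 1.05, -0.09 and -0.26 on day 3 and 0.47, 1.77 and 1.49 on day 7. Mst1r, the epithelial receptor of macrophage-stimulating protein, had 0.75, -0.19 and 0.25 against 1.20, 1.41 and 1.34. Habp4, an intracellular hyaluronan- and RNA-binding protein, had 1.67, 0.05 and -0.05 against 1.06, 2.08 and 1.92. In all 3 genes biorep 7 was the highest of day 3, and for Pgc and Habp4 it overlapped day 7, so that the separation of the days rested on leaving it out (adjusted p of 0.11 to 0.19 with it). Cdc42ep1, an effector of the GTPase Cdc42, and Megf6, a protein of EGF-like repeats, did not overlap in any biorep, with changes of 1.31 ± 0.27 and 1.24 ± 0.24 (SE). Slc22a7, a transporter of organic anions, and Ptk7, a receptor-like protein of planar cell polarity, did not overlap either and changed by 1.18 and 0.90.

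**Figure D2:**
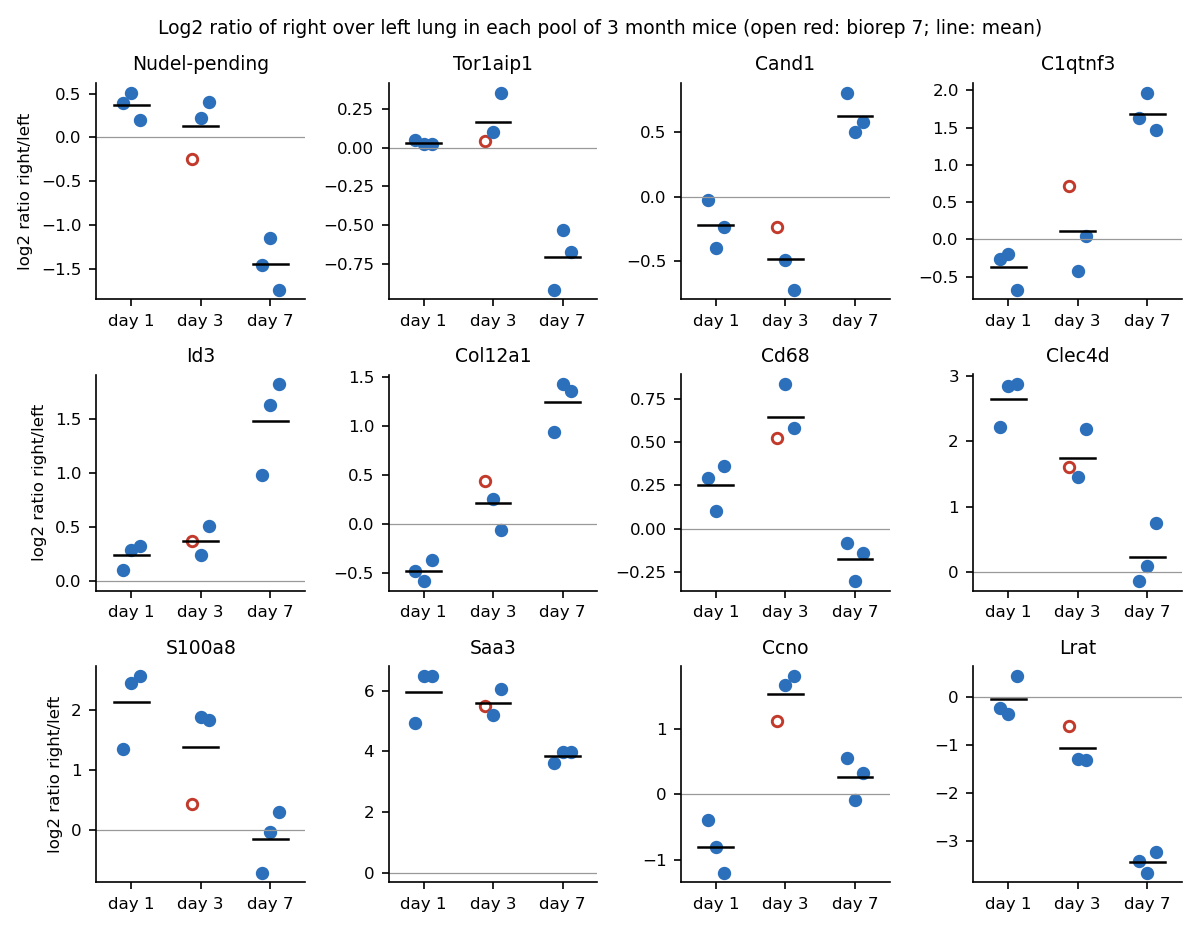
Log2 ratio of right over left lung in each biorep of 3 month mice (y axis) on days 1, 3 and 7 (x axis) for 12 genes; points are bioreps, the open red point is biorep 7 and lines are means of 3. Nudel-pending, Tor1aip1, C1qtnf3, Id3 and Col12a1 left their day 3 range only on day 7, whereas Cd68, Clec4d, Ccno and S100a8 were near 0 on day 7.

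Late-starting falls without biorep 7 included Zc3h13, a zinc-finger protein of the complex that methylates adenosine in RNA. Its ratios were -0.46, -0.16 and -0.02 on day 3 and -1.91, -2.41 and -1.10 on day 7, a 3.49-fold lower level in the right lungs on day 7. The change of -1.59 ± 0.28 (SE, adjusted p = 0.054 with all bioreps) lay in the right lungs, at -1.57, with 0.02 in the left lungs. Usp10, a deubiquitinase, had ratios of -0.76, -0.53 and -0.52 against -1.93, -2.56 and -1.42, but its left lungs differed by 0.98 and its right lungs by -0.39.

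Hhip, which binds hedgehog ligands and holds back their signal, had ratios of -0.21, 0.23 and 0.67 on day 3 and -0.49, -0.89 and -0.88 on day 7, and its right lungs differed by -0.88. Col23a1, a collagen that stays in the cell membrane, had -0.51, -0.14 and -0.40 against -1.58, -1.32 and -1.22, and its right lungs differed by -1.18. Neither gene overlapped between the days. The Col23a1 values are those of the called probe, and its brighter probe changed by -0.45. Myo10, the myosin of filopodia, had -1.05, 0.03 and -0.27 against -1.28, -1.37 and -1.37, so biorep 7 lay close to the day 7 range. Alcam, an adhesion molecule of the immunoglobulin family, had -0.93, 0.12 and 0.19 against -1.47, -0.89 and -0.62, and there biorep 7 lay within it. Tor1b and Rai1, a chromatin-associated regulator, were called among these falls as well, at changes of -0.99 and -1.04 without biorep 7. The other 2 Rai1 probes, both dimmer, went the opposite way, by 0.46 and 0.62 with all bioreps, so no direction can be given for Rai1 as a gene.

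The resolving rises without biorep 7 included genes of myeloid cells. Clec4d, a C-type lectin receptor of neutrophils and monocytes, had ratios of 1.61, 1.45 and 2.19 on day 3 and -0.14, 0.09 and 0.75 on day 7. It was 3.36-fold higher in the right lungs on day 3 and 1.18-fold on day 7, with a change of -1.52 ± 0.28 (SE, adjusted p = 0.054 with all bioreps, 0.033 without biorep 7). S100a8, a subunit of the neutrophil protein calprotectin, had 0.44, 1.89 and 1.83 against -0.70, -0.02 and 0.31, and its adjusted p was 0.14 with biorep 7, the lowest of its day, and 0.043 without. Cd68, the lysosomal glycoprotein of macrophages, had 0.52, 0.83 and 0.58 against -0.08, -0.30 and -0.14.

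For Cd68 the change of -0.82 ± 0.15 (SE, adjusted p = 0.054 with all bioreps, 0.029 without biorep 7) lay wholly in the right lungs, at -0.83. Cfp, or properdin, which stabilises the complement convertase, was even across the day 3 bioreps, at 0.96, 1.06 and 1.10, against 0.10, 0.01 and 0.43 on day 7. Il18, a cytokine released by inflammasomes, had 0.39, 0.67 and 0.79 against -0.68, 0.17 and 0.04, but its right lungs differed by -0.02 and its left lungs by 0.75. Tlr2, the receptor for bacterial lipoproteins, overlapped between days through biorep 7, at -0.11 on day 3.

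Ccno and Ezh2 were resolving rises as well. Ccno, the atypical cyclin needed for cells to grow many cilia, had ratios of 1.13, 1.68 and 1.82 on day 3 and 0.55, -0.09 and 0.32 on day 7, with day 1 ratios of -0.40, -0.81 and -1.20. It was thus highest on day 3 of the 3 days, and its change from day 3 to day 7 was -1.28 ± 0.27 (SE, adjusted p = 0.064 with all bioreps, 0.029 without biorep 7). Ezh2, the methyltransferase of the Polycomb complex that marks histone H3, had 0.04, 0.83 and 1.13 against -0.02, -0.46 and -0.22. In Ezh2 biorep 7 was the lowest of day 3, just above the highest day 7 biorep.

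Resolving falls, lower on day 3 and near or above 0 on day 7, included 4931426K16Rik, which RefSeq lists as Spef1, a microtubule-binding protein of cilia. It had ratios of -0.51, -0.98 and -0.97 on day 3 and 0.47, 0.03 and 0.00 on day 7, a change of 0.99 ± 0.18 (SE, adjusted p = 0.054 with all bioreps, 0.019 without biorep 7). Another probe, listed under the symbol Spef1, was not called without biorep 7. With array weights that probe was called as a late-starting rise, also higher on day 7 but not a resolving fall. Grap, an adaptor of receptor signalling, had -0.75, -1.02 and -1.59 against 0.24, -0.31 and -0.53. Abcb6, a porphyrin transporter, had -0.22, -0.82 and -0.99 against 0.48, 0.13 and 0.00. Atf5, a stress-response transcription factor, and Pi16, a surface marker of adventitial fibroblasts, had changes of 0.96 and 1.02 with no overlap. Ehd1, an organiser of endocytic recycling, changed by 1.04. The size of these changes varied with the processing. Over 20 alternatives the lowest change was 0.094 for Abcb6, 0.22 for Grap and 0.31 for Ehd1. It was 0.41 for 4931426K16Rik, 0.47 for Pi16 and 0.70 for Atf5. Left and right lungs are given apart only for Cry2 in this class. Cry2, a repressor of the circadian clock, had -0.01, -0.53 and -0.79 against 0.60, 0.27 and 0.43, but its left lungs differed by -1.16 and its right lungs by -0.28, so that the direction of the right lungs alone was opposite.

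Across all transcripts, the left lungs of the day 7 cohort differed from those of the day 3 cohort for 1412 transcripts (8.94%), 850 higher and 562 lower, although both were taken at surgery. The right lungs differed between the days for 776 (4.91%), 567 higher and 209 lower. Of the 203 transcripts called without biorep 7, the left lungs were called in the direction opposite to the change for 70 and in the same direction for 1, and the right lungs were called for 48. A difference between the left lungs enters the change with its sign turned, so this split is partly arithmetic.

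Elastin showed how far this could reach. The Eln ratios were 2.35, 2.83 and 2.29 on day 3 and 2.40, 2.28 and 2.78 on day 7, a change of -0.01 ± 0.31 (SE), while the left lungs differed by 1.97 and the right lungs by 1.96. Both lungs of the day 7 cohort were thus higher, and the ratio was level. Genes of glucocorticoid response and the circadian clock differed between cohorts in the same way: of 13 measured, 7 were called lower in the left lungs of day 7 (against 3.56% of all transcripts) and 5 in the right lungs (against 1.32%). Tef, a clock output transcription factor, was lower by 1.70 in the left and by 1.27 in the right lungs, and its ratio changed by 0.44 (adjusted p = 0.59). The part of the hour of surgery or sampling was not tested.

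**Figure D3:**
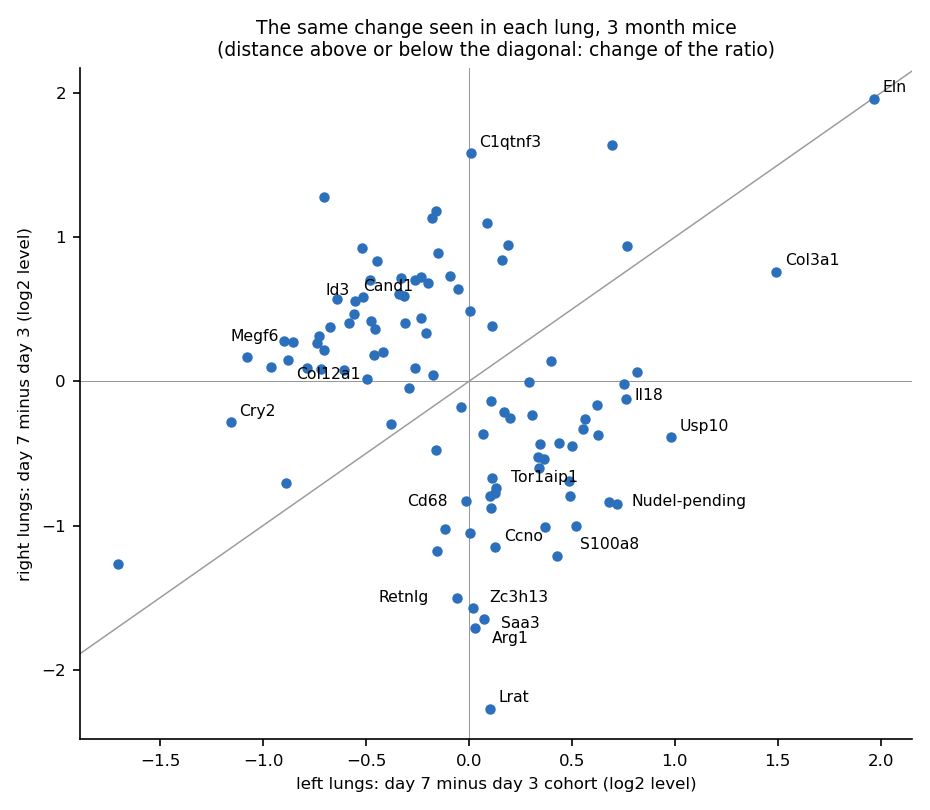
Day 7 minus day 3 difference of the log2 level in left lungs (x axis) and right lungs (y axis) for the genes named in the text, means of 3 arrays; the diagonal is an unchanged ratio. C1qtnf3, Saa3, Arg1, Zc3h13 and Lrat lie near 0 on the left lung axis, whereas Megf6, Col12a1, Cry2 and Usp10 owed much of the change of their ratio to the left lungs.

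The responses of the 2 days were shared in part. On day 3, 1067 transcripts (6.76%) were higher and 1229 (7.78%) lower in the right lungs, and on day 7, 1537 (9.73%) were higher and 1688 (10.7%) lower. Of these, 1382 were called on both days in the same direction (742 higher and 640 lower), which was 60.2% of the day 3 and 42.9% of the day 7 calls, and 2 were called in opposite directions. Day 7 added 767 higher and 1001 lower transcripts that were under 1.5-fold on day 3, and 314 higher and 575 lower transcripts of day 3 were under 1.5-fold on day 7. The ratios of day 7 all exceeded those of day 3 in 8.88% of transcripts and all fell below them in 9.62%. Without biorep 7 the day 3 calls were 934 higher (5.91%) and 1162 lower (7.36%).

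Genes of mitosis and the spindle rose by day 3 and remained high. All 12 measured genes were called higher on day 3, also without biorep 7, and all 12 on day 7, and none was called in the change. The shares of all transcripts called higher were 6.76% on day 3 and 9.73% on day 7. Their median ratio was 0.17 on day 1, 2.48 on day 3 and 2.19 on day 7. By biorep the median was 2.75, 2.56 and 2.09 on day 3 and 2.15, 2.13 and 2.49 on day 7, so the days overlapped. Mki67, the nuclear antigen of dividing cells, had ratios of 2.88, 2.67 and 2.29 on day 3 and 2.27, 2.31 and 2.48 on day 7, that is, 6.11-fold and 5.10-fold higher. Birc5, or survivin, of the chromosomal passenger complex, Top2a, which untangles sister chromatids, and Cdc2a (Cdk1), the mitotic kinase, gave changes of -0.30, -0.39 and -0.54, each with an adjusted p of 0.51 or more.

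Promoters of the mitosis genes are shown because these genes moved together. RefSeq sequence of build GRCm38.p6, from 250 bases before to 50 bases after the start of the gene, was found for all 12. The cell cycle homology region (TTTGAA, either strand), a short element of genes expressed in mitosis, was in 10 of the 12 and in 17.9% of all 32851 promoters of the same length. The CCAAT box (CCAAT, either strand), the site of factor NF-Y, was in 10 and in 37.4%. A match describes the letters of this window and is not a site. Below are the promoters of Mki67 (chr7:135716330-135716629, minus strand) and of Cdc20, activator of the anaphase ubiquitin ligase (chr4:118437294-118437593, minus strand), with both elements in capitals. Cdc20, shown for its motifs, had ratios of 2.77, 2.45 and 2.01 on day 3 and 2.23, 2.25 and 2.03 on day 7.
Mki67: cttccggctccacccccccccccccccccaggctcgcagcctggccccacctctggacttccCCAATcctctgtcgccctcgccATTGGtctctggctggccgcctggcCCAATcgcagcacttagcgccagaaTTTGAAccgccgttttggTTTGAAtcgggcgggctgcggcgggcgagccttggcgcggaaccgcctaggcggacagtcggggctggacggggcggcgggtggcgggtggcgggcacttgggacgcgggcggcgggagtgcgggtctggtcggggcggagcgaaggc
Cdc20: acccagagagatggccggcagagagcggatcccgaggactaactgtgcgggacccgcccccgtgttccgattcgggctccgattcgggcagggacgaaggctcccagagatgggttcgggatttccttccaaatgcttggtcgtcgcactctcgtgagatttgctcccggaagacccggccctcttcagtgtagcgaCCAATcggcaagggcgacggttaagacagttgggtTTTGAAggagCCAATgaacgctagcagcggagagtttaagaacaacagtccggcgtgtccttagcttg

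DNA replication genes behaved likewise. Of 23 measured, 20 were called higher on day 3 (17 without biorep 7) and 20 on day 7, against 6.76% and 9.73% of all transcripts. Their medians were 1.15 and 1.06. Tk1, the thymidine kinase of S phase, had 3.18, 2.72 and 2.61 against 1.62, 1.83 and 2.08, without overlap, but its change of -0.99 ± 0.39 (SE) did not pass (adjusted p = 0.26). Mcm6, of the replicative helicase, had 0.90, 1.61 and 1.38 against 0.79, 0.99 and 1.17.

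**Figure D4:**
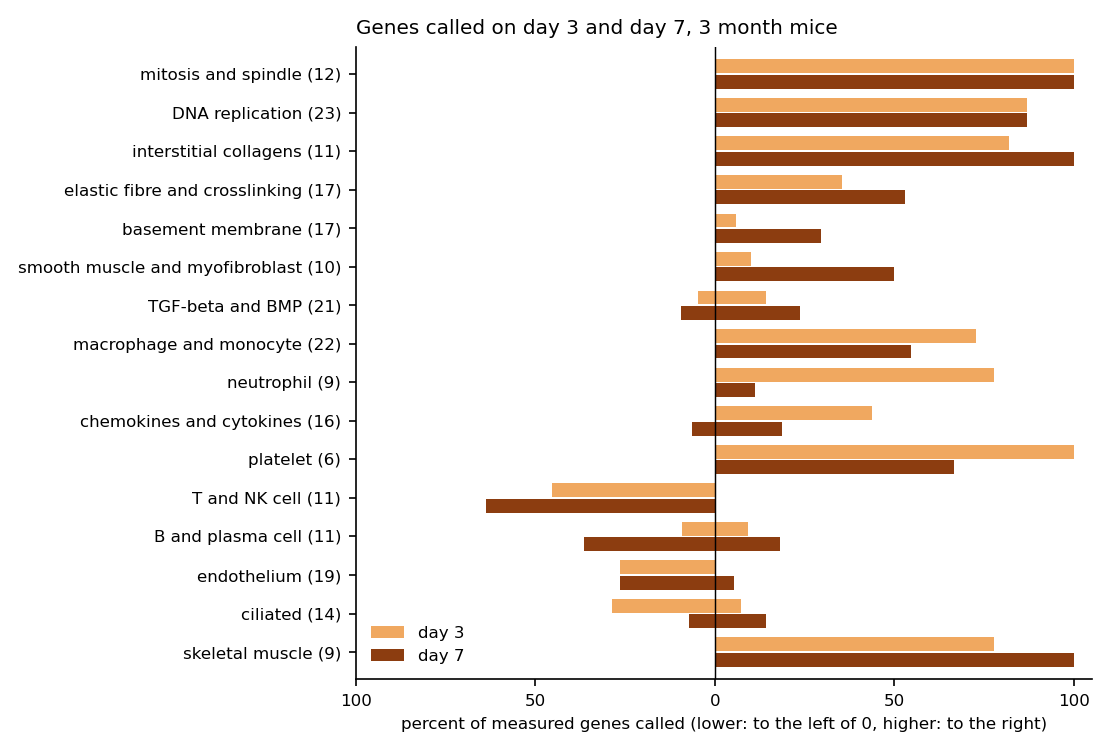
Percent of the measured genes of each list called higher (right of 0) or lower (left of 0) in right over left lung on day 3 (light) and day 7 (dark); the number measured is in parentheses. All 12 mitosis genes were higher on both days, and 7 of 9 neutrophil genes on day 3 and 1 on day 7. Smooth muscle genes called higher were 1 of 10 on day 3 and 5 on day 7, and also 5 on day 1, which is not drawn.

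Neutrophil genes went the other way. Of 9 measured, 7 were called higher on day 3 (5 without biorep 7) and 1 on day 7, against 6.76% and 9.73% of all transcripts. In 7 all 3 ratios of day 7 lay below those of day 3 (against 9.62%). The median ratio was 1.99 on day 1, 1.17 on day 3 and 0.05 on day 7. The median change was -0.94, beside 0.00 over all transcripts. The median difference of day 7 from day 3 was 0.32 in the left lungs and -0.60 in the right lungs, so the left lungs gave part of the change. No neutrophil gene was called in the change with all bioreps, and 2 were without biorep 7, S100a8 and Clec4d. Retnlg, a resistin-like protein of neutrophils, had ratios of 0.76, 1.98 and 1.75 on day 3 and -0.45, 0.30 and 0.30 on day 7 (adjusted p = 0.19), and Mmp9, the gelatinase of neutrophil granules, had 1.33, 0.73 and 0.65 against -0.33, 0.02 and 0.19 (adjusted p = 0.23). Both were called on day 3 and neither on day 7. Ltf, lactoferrin, was the exception: it was called on both days, at 1.17, 0.95 and 1.37 against 1.46, 1.47 and 1.29. Ltf is made by secretory epithelium as well as by neutrophils.

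Saa3, an acute phase apolipoprotein made by activated macrophages and epithelium, responded more strongly than these genes on both days. Its ratios were 5.51, 5.18 and 6.04 on day 3 and 3.62, 3.97 and 3.97 on day 7, 47.8-fold and 14.5-fold higher in the right lungs. The days did not overlap and the left lungs differed by 0.07, so the change of -1.72 ± 0.36 (SE, adjusted p = 0.064 with all bioreps, 0.046 without biorep 7) lay in the right lungs, which differed by -1.65 (adjusted p = 0.00057). Its RefSeq promoter (GRCm38.p6, chr7:46715627-46715926, minus strand), shown for the C/EBP element known from acute phase genes, holds 1 match to TTGCNNAA, searched on both strands and found on the opposite one, in capitals, and none to the NF-kB form (GGG, then any 3 bases, then TTCC).
Saa3: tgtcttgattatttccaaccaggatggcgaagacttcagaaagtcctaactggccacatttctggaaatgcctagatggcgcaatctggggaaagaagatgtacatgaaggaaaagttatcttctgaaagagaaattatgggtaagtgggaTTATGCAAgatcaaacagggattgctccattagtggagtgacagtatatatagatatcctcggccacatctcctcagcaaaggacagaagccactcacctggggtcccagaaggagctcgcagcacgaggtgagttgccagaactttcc
The C/EBP form was in 3 of 8 neutrophil and 5 of 16 macrophage gene promoters found and in 10.8% of all promoters, and the NF-kB form in 1 and 1, and in 5.56%.

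Of 22 macrophage and monocyte genes measured, 16 were called higher on day 3 and 12 on day 7, with medians of 0.86 and 0.62. Of all transcripts 6.76% and 9.73% were called higher on these days. All day 7 ratios lay below those of day 3 for 10 of the 22 (against 9.62% of all transcripts), and 4 were called lower in the right lungs of day 7 (against 1.32%). Arg1, arginase of alternatively activated macrophages, had ratios of 4.56, 4.21 and 5.06 against 3.37, 2.59 and 2.64, 24.4-fold and 7.30-fold higher. It did not overlap between days, but its change of -1.74 ± 0.49 (SE) did not pass (adjusted p = 0.13). Csf1r, the receptor of the macrophage growth factor, had 0.63, 0.62 and 0.60 against -0.56, 0.14 and 0.02 (adjusted p = 0.16), while its right lungs differed by 0.06 and its left lungs by 0.81. Ctsk, a cysteine protease that degrades collagen and elastin, had 1.496, 1.654 and 1.199 against 0.997, 0.295 and 0.708. C1qa, of the first complement component, and Trem2, a lipid receptor of macrophages, were called higher on both days, at means of 1.45 and 1.64, and of 1.78 and 1.86.

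Chemokines and cytokines called higher were 7 of 16 on day 3 and 3 on day 7, against 6.76% and 9.73% of all transcripts. Il1b, the fever cytokine interleukin 1 beta, had 0.48, 1.22 and 1.69 against -0.61, -0.07 and -0.09, without overlap (adjusted p = 0.19). Cxcl1, which attracts neutrophils, had 1.08, 1.62 and 3.25 against -0.10, -0.06 and 1.17, and overlapped. Ccl9, a chemokine of macrophages, remained called on both days, at 4.18-fold and 2.26-fold. All 6 measured platelet genes were called higher on day 3 and 4 on day 7, against the same shares. Ppbp, the platelet basic protein, had 1.24, 1.77 and 2.50 against 0.67, 0.93 and 0.74. The left lungs of day 7 had a median platelet gene level 0.58 lower than those of day 3, which raised the day 7 ratios.

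**Figure D5:**
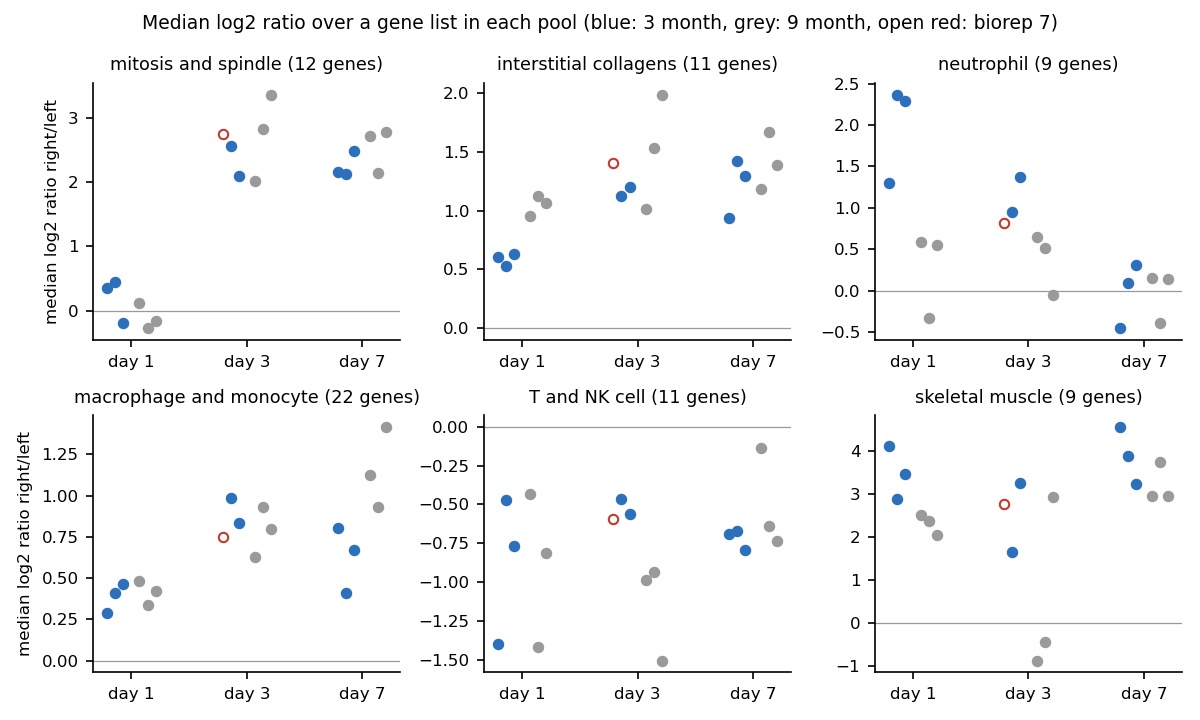
Median log2 ratio of right over left lung over the genes of 6 lists in each biorep (y axis) on days 1, 3 and 7 (x axis), 3 month mice in blue, 9 month mice in grey and biorep 7 in open red. The neutrophil medians of 3 month mice are between 0.81 and 1.37 on day 3 and between -0.45 and 0.31 on day 7, while the mitosis medians overlap between these days.

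Interstitial collagens were already high on day 3. Of 11 measured, 9 were called higher on day 3 and 11 on day 7, against 6.76% and 9.73% of all transcripts. Their medians were 1.27 and 1.24. Col1a1, the main collagen of fibrils, had 2.78, 2.35 and 2.41 against 2.20, 2.17 and 2.74. Col3a1, its partner in compliant tissue, had 2.85, 2.28 and 2.51 against 1.32, 2.19 and 1.95, without overlap, but its left lungs differed by 1.49 and its right lungs by 0.76. Col15a1, a collagen of the basement membrane zone, had 1.499, 1.038 and 1.221 against 2.433, 1.667 and 1.727 (change 0.69, adjusted p = 0.37).

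Some matrix groups had more calls on day 7, as did all transcripts together, of which 6.76% were called higher on day 3 and 9.73% on day 7. Elastic fibre and crosslinking genes called higher were 6 of 17 on day 3 and 9 on day 7. Basement membrane genes were 1 of 17 (0 without biorep 7) and 5, and smooth muscle and myofibroblast genes 1 of 10 and 5. On day 1 these lists had 5, 2 and 5 genes called higher, so the smooth muscle count of day 7 was that of day 1. The median ratio of the smooth muscle list was 0.54 on day 1, 0.24 on day 3 and 0.61 on day 7. The median changes of these lists were 0.29, 0.19 and 0.21, beside 0.00 over all transcripts. Matricellular genes called higher were 4 of 11 on both days, and matrix proteases and their inhibitors 6 of 18 on both. Nid1, which links laminin to collagen IV, had 0.15, 0.07 and 0.04 against 1.10, 0.64 and 0.68, and Smtn, a cytoskeletal protein of contractile smooth muscle, had 0.22, 0.29 and 0.25 against 0.99, 0.88 and 0.52. Both were called on day 7 only and neither passed in the change (adjusted p of 0.10 and 0.14). Lmod1, an actin nucleator of smooth muscle, had -0.09, -0.48 and 0.33 against 0.74, 0.99 and 0.51.

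Of the 21 genes measured in TGF-beta and BMP signalling, 3 were called higher on day 3 (against 6.76% of all transcripts) and 5 on day 7 (against 9.73%), and 6 had all day 7 ratios above those of day 3 (against 8.88%). Tgfb3, a TGF-beta ligand, had 0.95, 0.40 and 0.70 against 1.34, 1.14 and 1.01. Fstl1, a secreted antagonist of BMP ligands, had 0.93, 1.27 and 1.45 against 2.51, 2.03 and 1.57. Both were called on both days, and their changes of 0.48 and 0.82 had adjusted p of 0.21 and 0.12. Ctgf, a matricellular target of TGF-beta and mechanical strain, was called lower on day 3, at -0.69, -0.87 and -0.44, and not on day 7, at -0.07, 0.32 and 0.48. Wisp1, its relative, had 0.49, 0.39 and 0.48 against 1.34, 1.62 and 1.23 and was called on day 7 only (adjusted p of the change 0.27). Wnt2, a ligand of lung mesenchyme, had 0.73, 0.22 and 0.71 against -0.59, -0.27 and -0.14 (change -0.89, adjusted p = 0.083).

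Lrat, the enzyme that stores vitamin A as retinyl esters, had the lowest change of all 15795 transcripts. Its ratios were -0.21, -0.35 and 0.45 on day 1, -0.60, -1.28 and -1.30 on day 3, and -3.40, -3.66 and -3.23 on day 7. It was 2.08-fold lower in the right lungs on day 3 and 10.8-fold lower on day 7, with the days far apart. Its change of -2.37 ± 0.55 (SE) had an adjusted p of 0.083, and the right lungs gave -2.27 of it. Aldh1a2, which makes retinoic acid from retinal, was called higher on both days, at 2.06, 1.91 and 2.43 against 2.79, 3.24 and 2.39.

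In the epithelium, Sftpb, a surfactant protein, had 0.78, 0.40 and 0.18 against 1.13, 0.75 and 1.01 and was called on day 7 only, with right lungs that differed by 0.02 and left lungs by -0.49. Fasn, the fatty acid synthase, had 0.27, -0.55 and 0.04 against 1.89, 0.73 and 0.76 (adjusted p = 0.16), without overlap. Ciliated cell genes called lower were 4 of 14 on day 3 (6 without biorep 7) and 1 on day 7, against 7.78% and 10.7% of all transcripts. Dnahc5, a dynein of the ciliary axoneme, had -0.80, -1.06 and -0.97 against -0.42, -0.44 and 0.08. Endothelial genes called lower were 5 of 19 on both days, against the same shares. Tie1, an endothelial receptor, had -0.71, -0.26 and -0.58 against 0.44, -0.07 and -0.06 (adjusted p = 0.16).

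Lymphocyte genes differed by class. T and NK cell genes called lower were 5 of 11 on day 3 (3 without biorep 7) and 7 on day 7, against 7.78% and 10.7% of all transcripts. Il7r, the interleukin 7 receptor, had -0.59, -0.63 and -0.80 against -1.53, -1.07 and -0.80. Of 11 B and plasma cell genes, 1 was called higher and 1 lower on day 3, and 2 higher and 4 lower on day 7. The day 3 counts of B and plasma cell genes were near the shares of all transcripts, 6.76% higher and 7.78% lower. On day 7 these shares were 9.73% and 10.7%. Faim3, the IgM receptor, had -0.19, -0.12 and 0.03 against -1.32, -0.66 and -0.99. Igh-6, the heavy chain of IgM, was called higher on both days at means of 1.16 and 1.43.

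Genes of other tissues were also called in the right lungs. Skeletal muscle genes were called higher in 7 of 9 on day 3 (5 without biorep 7) and 9 of 9 on day 7. Of all transcripts 6.76% were called higher on day 3 and 9.73% on day 7. On day 1 the skeletal muscle count was already 8 of 9. The median ratio of the list was 3.48 on day 1, 2.55 on day 3 and 3.88 on day 7. Its median change was 1.28, and no gene of the list was called in the change. The median difference of day 7 from day 3 was -0.45 in the left lungs and 0.91 in the right lungs. Mylpf, a fast muscle myosin light chain, had 3.64, 1.99 and 4.51 against 5.86, 5.61 and 4.62, and Ckm, the muscle creatine kinase, had 4.28, 1.92 and 3.53 against 5.45, 4.51 and 3.60. By biorep the median of the list was 2.76, 1.64 and 3.24 on day 3 and 4.55, 3.88 and 3.23 on day 7, so the days overlapped. The defining markers Acta1, Myh1 and Tnnt3 were not among the transcripts kept. Cardiac muscle genes called higher were 2 of 8 on day 3 (0 without biorep 7) and 3 on day 7, fat genes 2 of 5 on both days, and thymus and lymph node genes 0 of 3. Mesothelial genes called higher were 3 of 8 and 4 of 8. Upk3b, of mesothelium, had 1.45, 1.86 and 1.62 against 2.01, 3.43 and 2.63, and Msln, mesothelin, had 3.11, 2.71 and 2.58 against 2.70, 4.39 and 3.58. The part of muscle or pleura in the changes above was not tested.

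The genes on which the study centred, 18 of which were measured, had no call in the change. Of these, 13 were called higher on day 3 and 10 on day 7, against 6.76% and 9.73% of all transcripts, and none lower. Several were named by the study from these same arrays, so the counts are not independent of that choice. The changes of the 18 lay between -1.38 and 0.48 with adjusted p of 0.19 or more. Tnc, tenascin C of provisional matrix, had 2.02, 3.00 and 2.04 against 2.76, 2.30 and 2.51. Retnla, a product of alternatively activated macrophages, had 3.01, 2.85 and 3.12 against 2.08, 2.22 and 1.83, without overlap, at an adjusted p of 0.37. Fn1, fibronectin, had 0.22, 1.35 and 1.39 against 0.57, 0.42 and 0.67 and was called on day 3 only. Tnfrsf12a, the TWEAK receptor, and Mdk, the growth factor midkine, were called on both days, with changes of 0.22 and 0.35.

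In 9 month mice, measured in 12 other arrays, the same contrast called 222 transcripts (1.41%), 89 higher and 133 lower on day 7. Of the 203 transcripts called in 3 month mice without biorep 7, 191 had the same sign in 9 month mice. Called there in the same direction were 32, or 15.8%, against 1.41% of all transcripts called in either direction. The share of all transcripts with the same sign at both ages is not given here, so the 191 stands without a baseline. The 9 month lungs of each day lay on the same chips as the 3 month lungs, so the 2 ages shared whatever a chip added. C1qtnf3 changed by 2.54 (adjusted p = 0.00056), Ezh2 by -1.72 (0.0068), Pgc by 1.45 (0.045), Nudel-pending by -1.35 (0.016), Zc3h13 by -1.33 (0.030) and Ccno by -1.12 (0.048) in 9 month mice. Cd68 differed in sign, at 0.23 in 9 month mice (adjusted p = 0.45). The difference of the change between the ages was itself tested and called no transcript in limma, with 1010 at an unadjusted p under 0.05 and a smallest adjusted p of 0.42. Its median standard error was 0.30.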

How the data were processed

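Total RNA of 36 pools was measured on Illumina MouseWG-6 v2 arrays. The deposited raw table gave the authors' scanner intensity and detection p-value of each probe without background correction or normalization, and the deposited value table gave log2 values that the authors made with the lumi package (RMA and quantile normalization, versions not given in the sources used here). No column belonged to an array of another study.

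Intensities were background corrected with the detection p-values (normexp, offset 16), quantile normalized over 36 arrays and logged with neqc (R 4.3.3, limma 3.58.1). Log2 ratios of right over left lung of 18 bioreps in 6 groups of age and day were fitted in limma, without further covariates, and the Benjamini-Hochberg adjustment ran across all 15795 transcripts. For a gene with several probes the brightest was used, except that Cand1, Col23a1, Slc39a7, Zdhhc3 and Jtv1 are given by a called probe that was not the brightest. Left lungs and right lungs were also fitted alone.

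Named genes were the 10 with the largest change in each class of called transcripts without overlap, up to 4 members of each list with the smallest p, and the genes of the study. The rule was also applied without biorep 7, which was chosen after the data were seen, and Cand1, Cdc20, Slc39a7, Cfp, Col23a1, Ankhd1, Dnajb6, Zdhhc3, Jtv1 and 4931426K16Rik were named after their values were seen. Many genes that the rule named are not reported here. The members and gene lists were chosen with earlier results of these data known. Of 11835 symbols, 10283 matched RefSeq.

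Left and right lung of a biorep came from the same mice, which is in the ratio. Their deviations from the group means correlated at -0.28 to 0.07 over the 6 bioreps. The precision of each value is limited by 3 bioreps a group. The scripts were tested on simulated data. Alternatives covered background correction, normalization, the detection filter, the arrays fitted, the pairing, array weights, thresholds, the methods' t-test and omission of each biorep.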

Additional observations from a re-analysis of the deposited data

How the results depend on the processing

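The count of changed transcripts depended on the processing. It was 3 in total, 3 late-starting and 0 resolving, and stayed at 3, 3 and 0 with no background correction, with scaling to the 75th percentile, with no fold threshold and with the difference itself at least 1.5-fold, and was 2, 2 and 0 with no detection filter. A normexp offset of 50 gave 33, 26 and 5, the authors' log2 values 41, 31 and 6, and the stricter filter, requiring detection at 0.01 on each of the 36 arrays, 35, 29 and 4. Array weights gave 332, 224 and 79, unpaired arrays with no replicate block 111, 82 and 19, and right lungs alone 660, 456 and 143. Detection on all 12 arrays, the 6 ratios alone and the replicate block each gave 0, 0 and 0, and detection on at least 3 arrays 1, 1 and 0. The 5 ratios other than biorep 7, an alternative added after the data were seen, gave 67, 39 and 17. The methods' t-test called 594 at an unadjusted p under 0.05 and 0 after Benjamini-Hochberg adjustment. Leaving out each biorep gave 0 to 203 changed, 0 to 137 late-starting and 0 to 46 resolving transcripts: without biorep 7, 203, 137 and 46; without biorep 15, 5, 4 and 0; without biorep 8, 9, 13 or 14, 0. The causes of these moves were not tested.

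Called in 6 alternatives (offset 50, the authors' values, the stricter detection, unpaired arrays, array weights and without biorep 7) were 18 transcripts, of which 10 were late-starting rises (Cdc42ep1, Col12a1, Dnajb6, Id3, Jtv1, Slc39a7, Zdhhc3 and 3 without a gene name), 5 late-starting falls (Nudel-pending, Tor1aip1, Zc3h13, Col23a1 and 1 without a gene name), 1 a resolving rise (Cd68), 1 a resolving fall (4931426K16Rik) and 1 a fall that was larger on day 7 (Ankhd1). These 6 alternatives all gave more calls than the main fit, and alternatives that called no transcript were not among them. The 18 are therefore not calls that hold under every alternative. Over 20 alternatives the lowest change was 1.08 for Cdc42ep1, 0.72 for Zdhhc3 and 0.59 for Id3. It was 0.28 for Slc39a7, 0.15 for Col12a1, 0.10 for Jtv1 and 0.083 for Dnajb6. Brighter probes of Slc39a7, Jtv1, Zdhhc3 and Col23a1 changed by 0.13, -0.075, 0.34 and -0.45, and the dimmer ones of Dnajb6 by -0.18 and -0.024. Of the 203 without biorep 7, 37 were called with the authors' values, 72 unpaired and 164 with array weights.

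The difference between ages was 0 transcripts under every alternative run. The left lung cohorts differed in 1412 transcripts, in 631 with the authors' log2 values, and in 942 to 1690 when 1 biorep was left out. Of 2024 values of 102 named transcripts, 23 turned sign. Eln, near 0 at -0.01, was 0.027 with offset 50, 0.051 with scaling, 0.11 with the authors' values, 1.96 in right lungs alone, and -0.15 to 0.16 when 1 biorep was left out, above 0 without biorep 8, 13 or 14. C1qa was -0.0066 with the authors' values, -0.70 in right lungs alone and -0.059 to 0.48 when 1 biorep was left out, below 0 without biorep 13. Trem2 was -0.021 and -0.29 in the same settings and -0.17 to 0.35 when 1 biorep was left out, below 0 without biorep 8 or 14. Igh-6 was -0.024 without biorep 7, in the whole fit and in the 5 ratios alone, and -0.024 to 0.68 when 1 biorep was left out, and Tnc was -0.057 with array weights. In right lungs alone Cry2 was -0.28, Csf1r 0.062, Col3a1 0.76, Mki67 0.14, Ltf -0.045 and Tef -1.27. The median change of all transcripts lay between -0.03 and 0.05 in every setting. Signal over background limits dim probes: the transcripts called without biorep 7 had a median log2 level of 8.67, against 9.29 for all tested. Dim probes among the named genes included C1qtnf3 at 6.43, Lmod1 at 6.53, Fasn at 6.63, Hhip at 6.94 and Habp4 at 7.17.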
